A study of Homo sapiens with 18 samples.

Results

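Replicate 2 of the human pancreatic cancer cell lines labelled MiaPaCa2 and Panc1 was set against replicates 1 and 3 of the same labels: 2 arrays against 4, of 18 arrays in all. The split follows the replicate numbers in the titles, and the arrays were selected on their measured intensities, which had already been seen to differ over many genes, so the differences between the sets are described here without a test. Both lines are established lines of carcinoma of the exocrine pancreas, labelled as resisting dasatinib, which inhibits kinases of the SRC family among others. The labels name no treatment of the cells, call the 3 arrays of a line biological triplicates, and put all 6 arrays on 1 slide. Line names are used only as the labels give them. The other 12 arrays are 3 each of SU8686, labelled resistant, and of Panc0403, Panc0504 and Panc1005, labelled sensitive, on 2 further slides.

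Epithelial cells adhere through E-cadherin, desmosomes and tight junctions and carry a keratin cytoskeleton. In epithelial-mesenchymal transition, transcription factors of the SNAI, ZEB and TWIST families repress these genes, and cells gain N-cadherin, vimentin, contractile proteins and matrix collagens. Pancreatic cancer lines are known to range from epithelial to mesenchymal, and some also express genes of neurons and endocrine cells.

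Total RNA was read on Illumina Human HT-12 v4 arrays, and all levels below are normalized log2 intensities. Detection means a detection p-value under 0.01, and 32.7% to 35.5% of probes were detected on the 6 arrays, whose median raw intensity was 110.4 to 124.8. The 10705 genes measured are those with a probe detected on at least 2 of the 6 arrays. In bulk RNA, fewer cells of a type and less RNA per cell cannot be told apart.

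Replicate 2 of MiaPaCa2 and replicate 2 of Panc1 correlated at r = 0.99 across genes. They correlated with replicates 1 and 3 at 0.812 to 0.826 under the same line name and at 0.814 to 0.817 under the other. Replicates 1 and 3 of a line correlated at 0.995 to 0.996, and those of different lines at 0.979 to 0.981. With the 12 arrays of the other slides, replicate 2 correlated at 0.807 to 0.854 and replicates 1 and 3 at 0.756 to 0.87. Genes are not independent replicates, and these values are a description. The 6 arrays thus fell into 2 expression states along the replicate number and not along the line name.

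A gene was called on in replicate 2 when it was detected on both replicate 2 arrays and on 0 of the other 4, with means apart by at least 1. This held for 569 of 10705 genes (5.32%). A gene was called off when it was detected on all 4 other arrays and on neither replicate 2 array, apart by at least 1, which held for 289 genes (2.7%). The rules ask for different numbers of arrays, so the 2 counts are not on 1 footing. With a distance of at least 3, 213 genes were on and 87 off. At the edge, TSPAN1 (1.00) fell just inside the rule for on and GFRA2 (0.997) just outside. ZNF346 (-1.01) fell just inside the rule for off and TBC1D3C (-0.99) just outside. Regardless of detection, 1597 genes (14.9%) were higher in replicate 2, with a difference of at least 1 and no overlap between the sets, and 1278 (11.9%) were lower. The other 7830 genes (73.1%) did neither, and the median difference over all genes was -0.03. Without background correction 175 genes were off, 1155 higher and 785 lower. In the authors' deposited log2 values 184 were off, 1206 higher and 794 lower. A gene measured only through the set where it is high had to differ, so the counts of lists below describe the arrays and support nothing further. Each list is to be read beside the shares over all genes, 14.9% higher and 11.9% lower. For genes on or off, a bound on the fold is given as "at least". It is set against the lowest detected level on the arrays where the gene was not detected, and holds for the probe read. The sign is always replicate 2 minus replicates 1 and 3.

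**Figure D1:**
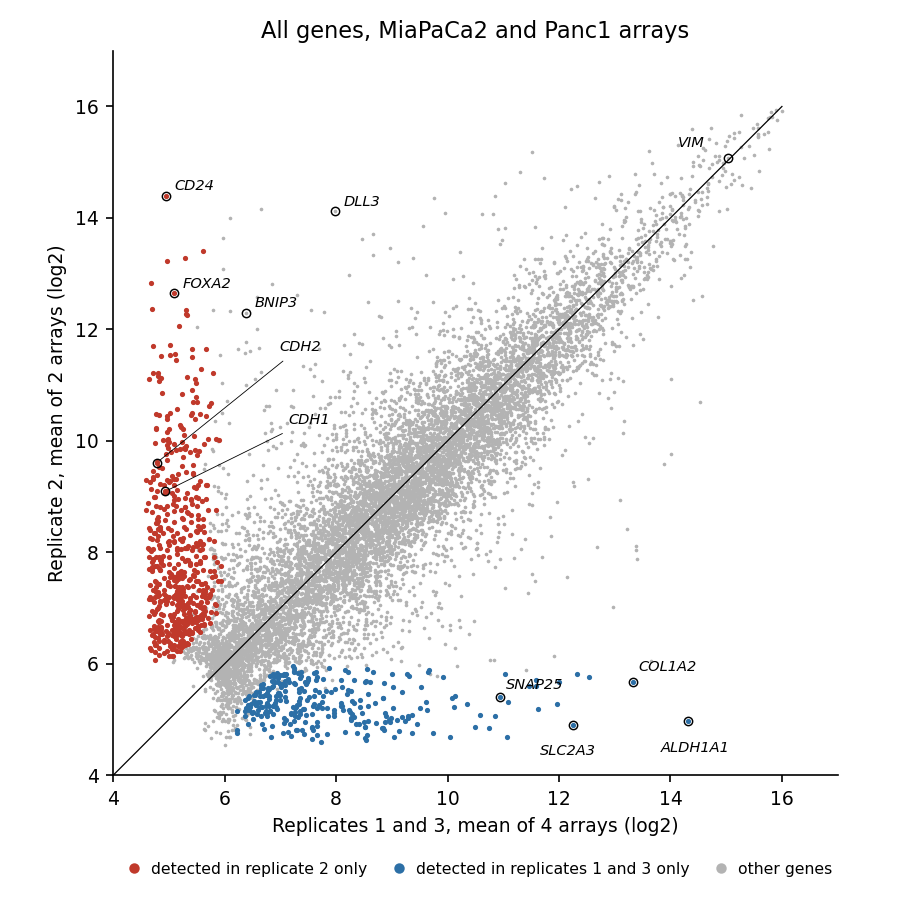
Mean normalized log2 intensity of 10705 genes on the 2 replicate 2 arrays (vertical axis) against the 4 replicate 1 and 3 arrays (horizontal axis); the line marks equal levels. The 569 genes detected only in replicate 2 and apart by at least 1 form the column at the left. The 289 detected only in replicates 1 and 3 and apart by at least 1 form the band at the bottom, while VIM lies on the line.

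CDH1 (E-cadherin, the adhesion protein of epithelial junctions) was at 9.24 and 8.94 in replicate 2 of MiaPaCa2 and Panc1, against 5.06 and 4.89 in replicates 1 and 3 of MiaPaCa2 and 4.82 and 4.96 in those of Panc1. The means were 9.09 ± 0.21 (SD, n = 2) and 4.94 ± 0.10 (SD, n = 4). It was detected on both replicate 2 arrays and on 0 of the other 4, at least 8.15-fold higher. EPCAM (an adhesion molecule of epithelial cell membranes) was at 9.13 and 9.10 in replicate 2, against 5.37, 4.87, 5.18 and 5.14 in the same order of arrays, which is kept below. It was at least 8.28-fold higher. CDH2 (N-cadherin, the cadherin of mesenchymal and neural cells) was on in the same 2 arrays as CDH1, at 9.79 and 9.42 in replicate 2, against 4.75, 4.84, 4.76 and 4.77, at least 11.6-fold higher. E-cadherin and N-cadherin were thus both detected in replicate 2, and neither in replicates 1 and 3. SNAP25, a membrane fusion protein of synaptic vesicles, ran the other way: 5.10 and 5.69 in replicate 2, against 10.84, 10.79, 11.15 and 10.97. That is at least 30.7-fold lower on this probe, and another SNAP25 probe differed by -3.70. The sets did not overlap for any of these 4 markers.

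VIM (vimentin, the intermediate filament of mesenchymal cells) was among the brightest genes in both sets and did not separate them, at 15.18 and 14.97 in replicate 2, against 14.95 to 15.11. SMAD4, a transducer of TGF-beta signals often lost in pancreatic cancer, was detected on all 6 arrays and differed by -0.34. CDKN2A, a cell cycle inhibitor, and MTAP, its neighbour on chromosome 9 and an enzyme of methionine salvage, were detected on 0 of the 6 arrays with their 3 and 1 probes. On these 3 genes the sets were alike in detection.

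**Figure D2:**
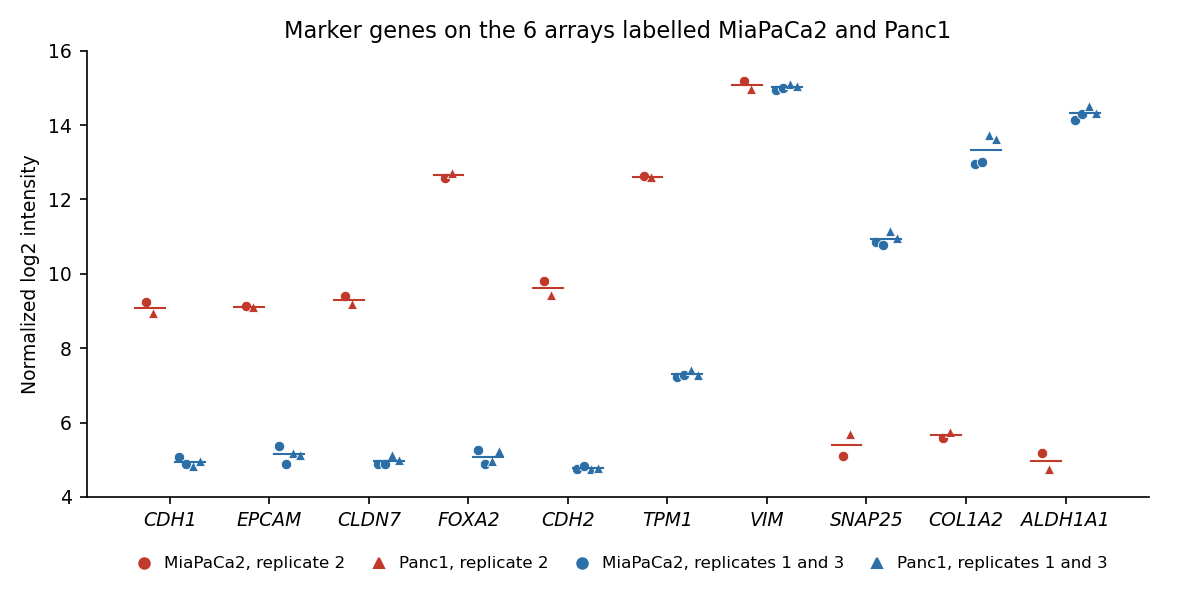
Normalized log2 intensity of 10 genes on the replicate 2 arrays (red, 2 arrays) and the replicate 1 and 3 arrays (blue, 4 arrays) of MiaPaCa2 (circles) and Panc1 (triangles), with a line at each mean. CDH1, EPCAM, CLDN7, FOXA2, CDH2 and TPM1 are higher in replicate 2, SNAP25, COL1A2 and ALDH1A1 lower, and VIM overlaps.

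The sequence before the first of 2 listed starts of CDH2 is shown because this marker is on in replicate 2, and that of CLDN7 because it holds the sites named next. Both are 250 bases before the RefSeq transcript start (GRCh38.p14, minus strand), at chr18:28177131-28177380 for CDH2 and, for the 2 starts listed for CLDN7, at chr17:7263214-7263463 and chr17:7262479-7262728. Capitals mark the E-box CAGGTG or its reverse complement CACCTG, the sequence that SNAI family repressors are known to bind.
CDH2: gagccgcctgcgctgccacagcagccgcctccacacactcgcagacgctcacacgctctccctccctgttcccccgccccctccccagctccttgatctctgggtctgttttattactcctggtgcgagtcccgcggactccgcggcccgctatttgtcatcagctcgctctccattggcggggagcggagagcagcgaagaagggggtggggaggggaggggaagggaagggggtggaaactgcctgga
CLDN7, first start: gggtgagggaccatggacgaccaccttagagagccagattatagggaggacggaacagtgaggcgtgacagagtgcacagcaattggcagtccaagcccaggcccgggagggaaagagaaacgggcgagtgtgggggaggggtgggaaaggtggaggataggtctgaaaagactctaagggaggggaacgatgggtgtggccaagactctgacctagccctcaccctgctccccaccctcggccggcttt
CLDN7, second start: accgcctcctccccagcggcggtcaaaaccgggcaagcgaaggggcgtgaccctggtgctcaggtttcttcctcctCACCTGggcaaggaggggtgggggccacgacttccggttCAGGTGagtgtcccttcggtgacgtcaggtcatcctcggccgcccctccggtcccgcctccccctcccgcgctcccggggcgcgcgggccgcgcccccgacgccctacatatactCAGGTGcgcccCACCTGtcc
The CDH2 window and the first CLDN7 window held 0 matches, and the second CLDN7 window held 4, which do not overlap each other. Of 27305 such windows in the table, taking 1 per gene, 17.5% held at least 1 match on either strand, as did 15.5% of the 8697 for measured genes. The share was 18.3% of 427 windows for genes on in replicate 2 and 22.9% of 201 for genes off. A match is a description of the letters and not a bound site.

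Of 24 listed genes of epithelial adhesion and junctions, 23 had a probe and 16 were measured. Of these, 10 were higher in replicate 2, 1 was lower and 5 did neither, and the median difference was 1.77. The genes on were EPCAM, CDH1, CDH3, CDS1 and PPL. PPL (periplakin, which links keratin to desmosomes) was at 7.91 and 7.93 in replicate 2, against 5.91, 5.70, 5.42 and 5.58. SPINT2, an inhibitor of membrane serine proteases, was bright in both sets, at 14.67 and 14.58, against 10.84, 10.68, 11.24 and 11.34. JUP (plakoglobin, a junction protein of the catenin family) differed between the replicate 2 arrays themselves, at 11.21 in MiaPaCa2 and 13.25 in Panc1, both above the 8.59 to 9.06 of the other 4 arrays. PKP2 (plakophilin 2, a desmosome protein) was the gene off, at 5.22 and 5.18 in replicate 2, against 8.06, 8.17, 7.27 and 7.48. The desmosome protein DSP was also below the other arrays, with a difference of -0.83, short of the 1 asked here. Desmosome genes thus stood on both sides, with DSG2 (1.5) and DSC2 (2.0) higher in replicate 2.

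Tight junction genes numbered 6 measured of 15, with 4 higher, 0 lower and a median of 1.57. CLDN7 (claudin 7) was on, at 9.41 and 9.19 in replicate 2, against 4.90, 4.87, 5.12 and 5.0, at least 9.42-fold higher. CGN (cingulin, a scaffold of tight junctions) was at 8.11 and 7.99, against 6.19, 6.13, 4.88 and 4.89. TJP1 (ZO-1, which anchors claudins to actin) differed by 0.37. Of 6 measured keratins of 16 listed, 5 were higher and 0 lower. KRT19, the keratin of pancreatic ducts, was at 14.45 and 13.68 in replicate 2, against 10.51 to 11.08. KRT8 and KRT18, the keratin pair of simple epithelia, were higher by 1.65 and 1.38 and were detected on all 6 arrays; a further KRT18 probe differed by only 0.20. Keratins were therefore present in both sets, and only KRT7 was on, at 6.10 and 7.25 in replicate 2, against 4.61 to 4.84.

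Epithelial transcription factors did not follow the junction genes in 1 direction: of 9 measured of 23 listed, 2 were higher, 2 lower and 5 neither. FOXA2, a pioneer factor of endoderm, was at 12.57 and 12.72 in replicate 2, against 5.27, 4.89, 4.96 and 5.22, at least 95.7-fold higher. PDX1, the homeobox factor that specifies pancreas, was on at a lower level, 7.46 and 7.26, against 5.24, 5.0, 5.40 and 5.05. EHF, an ETS factor of epithelia, was off, at 4.83 and 4.89, against 8.34, 8.57, 8.50 and 8.68. FOXA1, a relative of FOXA2, was lower (difference -1.18). SOX9, a factor of pancreatic ducts, was bright in both sets and differed by 0.16.

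Factors of mesenchyme were likewise split, with 3 higher, 2 lower and 1 neither of 6 measured of 15 listed. SNAI2 (Slug, a repressor of E-cadherin) was off, at 4.71 and 4.79 in replicate 2, against 7.32 to 7.52, at least 2.69-fold lower. FOXC2, a forkhead factor of mesenchyme, was on, at 8.40 and 9.27, against 5.07, 5.22, 5.16 and 5.05, as were MSX2 (2.40) and TWIST2 (1.55). The sets thus differed in which factor of the class was detected.

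Mesenchymal cytoskeleton and matrix genes spanned differences of -7.67 to 6.23. Of 48 listed, 32 were measured, with 14 higher, 12 lower and 6 neither (all genes: 14.9% higher and 11.9% lower). There were 9 on and 3 off, and the median was 0.37. Without background correction 9 were higher and 10 lower, in the authors' deposited log2 values 9 and 11, and without Panc1 replicate 2 the median was 0.14. Contractile and matricellular genes led the higher side. TPM1 (tropomyosin 1, an actin-binding protein) was at 12.62 and 12.60 in replicate 2, against 7.23, 7.27, 7.41 and 7.27, though another probe differed by only 1.09. CCN2 (connective tissue growth factor, a target of YAP) was at 12.14 and 12.51, against 6.0, 6.27, 6.20 and 5.90. COL1A1, the alpha 1 chain of type I collagen, was on, at 8.0 and 8.15, against 5.50, 5.37, 5.20 and 5.11. SPARC, MMP2 and THY1, a matrix glycoprotein, a gelatinase and a surface marker of fibroblasts, were also on, by 1.74, 2.19 and 2.41.

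Fibrillar and basement membrane collagens led the lower side. COL1A2, the alpha 2 chain of the same type I collagen, was off, at 5.59 and 5.74 in replicate 2, against 12.95 to 13.74, at least 161-fold lower. COL3A1 was off as well, at 5.22 and 5.40, against 11.07, 11.14, 11.13 and 11.03. COL5A2 was at 7.19 and 6.85, against 12.88 to 13.10, and the basement membrane chain COL4A1 was off, with a difference of -4.10. The 2 chains of type I collagen therefore ran opposite ways between the sets. CALD1 (caldesmon, an actin-binding regulator of contraction) was lower (difference -3.90), opposite to TPM1. COL6A1, COL6A2 and COL6A3, chains of type VI collagen, were lower too, with differences of -1.04, -1.51 and -3.56.

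Markers of fibroblasts and stellate cells, the collagen-making cells of the pancreas, give these values a context. Of 12 with a probe, 2 were detected on each replicate 2 array and 4 to 5 on each other array, and their summed linear level was 751 to 879 in replicate 2 and 11200 to 17300 in replicates 1 and 3, a sum that collagens dominate. LUM, PDGFRA, PDGFRB, FAP and DES, defining markers of these cells, were detected on 0 of the 6 arrays. RGS5, a marker of pericytes, was off in replicate 2, at 5.85 and 5.86, against 9.51, 9.53, 9.89 and 9.70. Of the 14 immune markers with a probe, 2 to 3 were detected in replicate 2 and 3 to 4 in the others, with PTPRC, CD3D and CSF1R among the 9 never detected; the sums were 1750 to 2200 and 1060 to 1510. Endothelial markers summed to 369 to 423 in replicate 2 and 427 to 543 in the others, with 8 of 10 never detected. Acinar and islet markers summed to 491 to 540 and 567 to 628, with 11 of 13 never detected. None of the 7 melanocyte and glial markers with a probe was detected on the 6 arrays.

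Neural and secretory granule genes were split as the mesenchymal ones were. Of 55 listed, 22 were measured, with 5 higher, 7 lower and 10 neither (all genes: 14.9% higher and 11.9% lower). There were 3 on and 2 off, and the median was -0.12. On the lower side with SNAP25 stood SCG2 (secretogranin II, a granule protein), at 7.03 and 9.03 in replicate 2, against 13.10, 13.17, 13.60 and 13.69. GAL (galanin, a neuropeptide) was at 7.89 and 6.84, against 11.16, 11.20, 10.80 and 10.96. MAPT (tau, a protein of axonal microtubules) was off, at 4.98 and 4.94, against 8.14, 8.04, 8.97 and 8.83, on the brighter of 2 detected probes; the other differed by -0.48. Other members stood on the higher side: L1CAM (a neural adhesion molecule) was on, at 9.18 and 9.37 in replicate 2, against 5.53, 5.88, 5.41 and 5.41. NRG1 (neuregulin 1, a ligand of ERBB receptors) was on at 8.35 and 8.44, against 5.11, 4.92, 4.96 and 5.15, but its other detected probe differed by only 0.22. CHGB (chromogranin B) was on too, by 1.27, and the pan-neuronal genes STMN3 (-0.41) and ENO2 (0.12) were bright in both sets without separating them.

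**Figure D3:**
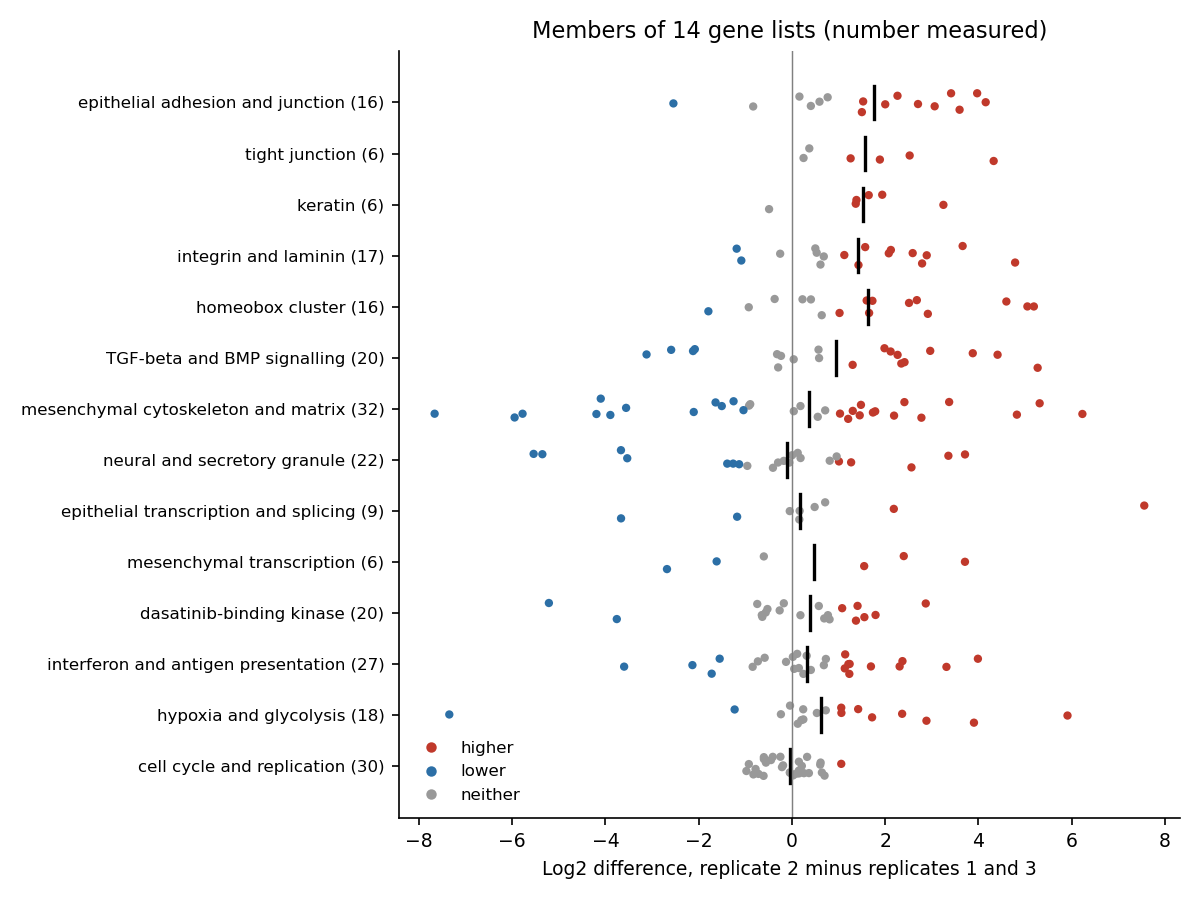
Difference of each measured member of 14 gene lists, replicate 2 minus replicates 1 and 3, on the log2 scale; red members are higher, blue lower and grey neither, and the black bar is the list's median. The epithelial adhesion list is centred on 1.77, the mesenchymal matrix list spans -7.67 to 6.23 around 0.37, and the cell cycle list stays within -0.98 to 1.06.

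The 12 genes of largest difference that were on in replicate 2 came from several processes. CD24, a surface glycoprotein of epithelial and progenitor cells, was at 14.41 and 14.38 in replicate 2, against 4.92, 4.77, 5.11 and 4.99. It was at least 322-fold higher on this probe, and another probe differed by 5.52. CCL2, a chemokine that attracts monocytes, was at 13.34 and 13.10, against 4.95, 4.91, 5.06 and 4.94. DKK3, a secreted relative of WNT inhibitors, was at 12.59 and 13.08, against 4.80, 4.64, 4.64 and 4.64. The 9 others were LXN (8.0), CRABP2 (7.81), UBASH3B (7.69), FOXA2 (7.56), CYP1B1 (7.04), LDHB (6.99), MARCKS (6.97), CRACR2B (6.94) and ANPEP (6.88). CRABP2 carries retinoic acid to its receptors, and LDHB is the lactate dehydrogenase subunit that favours lactate use. LDHB was at 11.76 and 11.63 in replicate 2 and at 4.66 to 4.76 in the others, whereas LDHA, the subunit that favours lactate production, was bright in both sets (15.34 and 15.36, against 14.73 to 14.91).

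Among the 12 genes of largest difference that were off, ALDH1A1, an enzyme that makes retinoic acid, was at 5.17 and 4.76 in replicate 2, against 14.14, 14.30, 14.52 and 14.33, at least 319-fold lower. SLC2A3 (GLUT3, the high-affinity glucose transporter of neurons) was at 4.75 and 5.05, against 11.33, 11.33, 13.16 and 13.19, and within replicates 1 and 3 it was higher in Panc1 than in MiaPaCa2. CALB2 (calretinin, a calcium buffer of neurons and mesothelium) was at 5.79 and 5.74, against 12.25, 12.38, 12.73 and 12.80, though another probe differed by only -1.03. The others were COL1A2, LTBR (-6.70), DOCK11 (-6.49), KLK6 (-6.44), FSTL5 (-6.38), TRIP6 (-6.33), TENT5A (-6.0), MT1M (-5.89) and CYBRD1 (-5.89). LTBR is a receptor that feeds noncanonical NF-kB signalling, and KLK6 is a secreted protease of the kallikrein family. MT1M belongs to the metallothioneins, whose near-identical members can share signal on 1 probe.

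HOX genes, which set position along the body axis, were mostly higher in replicate 2. Of 16 measured of 36 listed, 10 were higher and 1 lower (all genes: 14.9% and 11.9%), with 5 on and a median of 1.63. In the HOXC cluster, HOXC13 was at 10.89 and 10.51 in replicate 2, against 5.60, 5.95, 5.43 and 5.05. HOXC4 was at 10.05 and 10.03, against 5.07, 4.92, 4.90 and 5.07, and HOXC9 and HOXC10 were on as well, by 4.60 and 2.92. HOXC8, between them, was detected on all 6 arrays and differed by 0.64. In the HOXB cluster HOXB4 was on (2.51), HOXB3, HOXB5, HOXB6 and HOXB7 were higher by 1.02 to 1.73, and HOXB8 was lower (difference -1.79).

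In TGF-beta and BMP signalling, ligands, receptors and targets differed separately. Of 38 listed, 20 were measured, with 10 higher and 4 lower (all genes: 14.9% and 11.9%). Among ligands, INHBB (the beta B subunit of inhibin and activin) was on, at 9.63 and 9.96 in replicate 2, against 5.62, 5.46, 5.32 and 5.12, and BMP6 was higher by 3.88, whereas BMP7 was off (difference -2.08). Among receptors, TGFBR2, the ligand-binding receptor of TGF-beta, was on, at 10.45 and 10.95, against 5.47, 5.53, 5.34 and 5.37. TGFBR3 (betaglycan, a co-receptor) was lower, at 8.72 and 9.01, against 11.29, 11.30, 11.59 and 11.64. Of the intracellular genes, SMAD3 was at 12.45 and 12.32, against 9.49, 9.49, 9.18 and 9.19, and the feedback inhibitor SMAD7 was on, by 2.97. Among targets, TGFBI was higher by 2.27, while the BMP targets ID2 and ID3 were lower, with differences of -3.12 and -2.12, and ID1 differed by 0.04.

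Growth factor receptors and ligands included 12 higher and 7 lower genes of 31 measured (all genes: 14.9% and 11.9%). PDGFB, a ligand of PDGF receptors, was at 9.97 and 9.66 in replicate 2, against 6.16, 5.83, 5.49 and 5.69. MST1R, the receptor RON, was on, at 7.51 and 7.80, against 4.62 to 4.74, and its relative MET was higher by 1.78. ROR1 and ROR2, receptors of WNT5A, were both on, by 2.58 and 2.27. IGFBP6, which binds IGF2, was lower, at 8.22 and 8.01, against 12.90, 13.05, 13.78 and 13.83. The FGF receptor FGFR3 was lower (difference -2.07), FGFR4 was off (-1.38), and EREG, a ligand of EGFR, was off (-2.28). EGFR itself differed by 0.55.

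Kinases that dasatinib is known to bind had 6 higher and 2 lower of 20 measured (all genes: 14.9% and 11.9%). SRC was at 9.20 and 9.24 in replicate 2, against 9.96, 9.97, 9.92 and 10.01, a difference of -0.74 that did not reach 1. LYN, YES1 and ABL1 differed by -0.63, -0.53 and -0.56. The collagen receptors DDR1 and DDR2 ran opposite ways. DDR1, found in epithelia, was at 10.35 and 10.81, against 7.44, 7.40, 8.26 and 7.74, and DDR2, found in mesenchyme, was off, at 5.27 and 4.97, against 8.95, 9.10, 8.69 and 8.78. Among Eph receptors, EPHA4 was off, at 5.67 and 5.94, against 10.80, 10.84, 11.23 and 11.21, while EPHA2 was higher by 1.37 and EPHB6 on, by 1.56.

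Integrins and laminins were higher for 10 of 17 measured genes and lower for 2 (all genes: 14.9% and 11.9%), with a median of 1.43. ITGA2, the collagen-binding alpha 2 subunit, was on, at 10.43 and 10.46 in replicate 2, against 5.34, 5.43, 5.87 and 5.99. ITGB5, LAMA5 and LAMB1 were higher by 2.89, 2.59 and 3.66. ITGB4, the hemidesmosome subunit, was lower (difference -1.19). In the cadherin family 6 of 12 measured genes were higher, among them the protocadherin PCDHB2 (3.42, on), and CDH10 was off (difference -2.43).

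A list of tumour suppressors, oncogenes and related genes showed 6 higher and 1 lower of 15 measured (all genes: 14.9% and 11.9%). CDKN1A (p21, a CDK inhibitor and a target of p53) was at 12.18 and 11.84 in replicate 2, against 6.05, 6.40, 6.80 and 7.08. ARID1A (a chromatin remodelling subunit) and KDM6A (a histone demethylase) were higher by 2.15 and 2.47. DPYD, the enzyme that breaks down fluorouracil, was off, at 5.81 and 5.83, against 9.24, 8.98, 9.55 and 9.30. MYC differed by -0.67. Of the genes that mark the classical type of pancreatic cancer, 5 of 7 measured were higher, led by AGR2 (a folding enzyme of mucins), at 9.80 and 10.98 in replicate 2, against 4.90, 4.88, 5.14 and 4.92. Of 35 such genes listed, 26 with a probe were not measured. The basal-like type had 2 higher and 2 lower of 7 (0 higher and 2 lower without background correction and in the authors' deposited log2 values), with the long noncoding RNA UCA1 off, at 5.71 and 5.50, against 11.50, 11.62, 11.41 and 11.34. Among cancer-testis antigens, 3 were higher and 1 lower of 7, and the helicase DDX43 was on, at 10.21 and 10.23, against 5.27, 5.33, 5.33 and 5.05.

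Hypoxia and glycolysis genes had 8 higher and 2 lower of 18 measured (all genes: 14.9% and 11.9%). BNIP3 (a mitophagy receptor) was at 12.35 and 12.24 in replicate 2, against 6.31, 6.31, 6.34 and 6.57. ADM (adrenomedullin) was higher by 3.91 and NDRG1 by 2.89, whereas SLC2A1 (GLUT1) differed by -0.04 while SLC2A3 was off. Stress genes had 9 higher and 1 lower of 26. The heat shock gene HSPA1A was on, at 9.32 and 9.19 in replicate 2, against 5.22, 4.81, 4.96 and 5.03, whereas its near-identical copy HSPA1B was at 12.15 and 12.15, against 12.21, 12.32, 12.23 and 12.31. The signals of such copies on separate probes are uncertain. Interferon and antigen presentation genes had 10 higher and 4 lower of 27 (all genes: 14.9% and 11.9%). The immunoproteasome genes PSMB8 (3.99, on) and PSMB9 (2.31) and the regulator IRF7 (3.32, on) were higher, and IFITM1, IFIT1, IFIT2 and IFIT3 were lower, with differences of -3.60, -1.55, -1.72 and -2.13 (another IFIT3 probe, -0.97). By contrast with these lists, 29 of 30 measured cell cycle and replication genes were neither higher nor lower, with a median of -0.04, and only the survivin gene BIRC5 reached a difference of 1 (1.06).

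In some stretches of chromosomes, neighbouring genes differed in the same direction. The order of genes was taken from RefSeq (GRCh38.p14), and runs of at least 5 consecutive measured genes that were all higher or all lower were listed after the values had been seen. There were 26 such runs, 19 higher and 7 lower, holding 158 of the 10705 measured genes, where 2875 were higher or lower. The values themselves set where a run, or the region named next, begins and ends. Several of them lay close together on the long arm of chromosome 19, between RYR1 and AKT2. Of its 35 measured genes, 31 were higher in replicate 2, 0 were lower and 4 (HNRNPL, LRFN1, RPS16 and EID2B) were neither, with 8 on and a median of 2.75. PAF1, a subunit of a transcription elongation complex, was at 14.46 and 14.25 in replicate 2, against 10.01, 10.04, 9.52 and 9.46. Its neighbour MED29, a Mediator subunit, was at 13.75 and 13.97, against 9.37, 9.51, 9.73 and 9.62. DLL3, a NOTCH ligand, was at 14.17 and 14.06, against 8.10, 8.16, 7.87 and 7.80. The kinase genes of the region were higher as well. AKT2, which acts downstream of PI3 kinase, was on, at 10.17 and 9.88, against 5.79, 5.86, 5.69 and 6.04. DYRK1B was on, by 4.25, and PAK4, a kinase of the actin cytoskeleton, was higher by 2.22. Housekeeping genes of the region, the nucleolar FBL (3.67) and the proteasome subunit PSMC4 (3.53), differed with them. On the slide of Panc1005 and SU8686, the same difference was 2.19 for PAF1, 2.29 for MED29, 2.86 for DYRK1B and 1.86 for AKT2. It was 1.95 for PAK4 and 2.03 for PSMC4, but 0.53 for RYR1 and -0.06 for DLL3. For these genes it was -0.23 (RYR1) to 1.03 (DYRK1B) on the slide of Panc0403 and Panc0504. FBL differed by over 1 on both slides. These differences were not tested.

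PAF1 and MED29 start 271 bases apart on opposite strands. The 250 bases before the start of PAF1 (chr19:39391107-39391356, GRCh38.p14, minus strand, RefSeq) lie between the 2 genes and are shown because both were higher by over 4. They hold 0 of the E-boxes named above and so are in lower case throughout.
PAF1: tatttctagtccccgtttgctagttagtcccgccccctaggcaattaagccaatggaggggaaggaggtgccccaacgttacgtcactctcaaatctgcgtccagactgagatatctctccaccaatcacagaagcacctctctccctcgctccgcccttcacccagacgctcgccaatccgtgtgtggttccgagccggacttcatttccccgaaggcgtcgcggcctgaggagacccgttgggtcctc

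On the short arm of chromosome 19, 12 consecutive measured genes from ANO8 to MPV17L2 were all lower in replicate 2, with a median of -1.32. PGLS, an enzyme of the pentose phosphate pathway, was at 8.81 and 8.50 in replicate 2, against 10.60, 10.72, 11.23 and 11.42. None of these 12 genes was off. On chromosome 16, 9 consecutive genes from TMC7 to IQCK were higher, with a median of 1.5. From HOXC13 to HOXC4, 5 of 6 neighbours in this order were on, among them the long noncoding RNA HOTAIR (difference 3.21). By whole chromosome, 21.9% of the 334 measured genes of chromosome 15 were higher and 2.4% lower, with a median of 0.48. Chromosome 21 ran the other way, with 7.02% of 114 genes higher and 23.7% lower and a median of -0.55. Chromosome 14 had 8.91% higher and 17.8% lower, and chromosome 11 had 22.3% higher and 6.22% lower. The X chromosome had the largest share higher, 25.3%, with 14.3% lower, and chromosome 8 had 19.7% higher and 17% lower. The shares over all genes were 14.9% and 11.9%. DNA copy number was not measured, and its part in these runs was not tested.

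**Figure D4:**
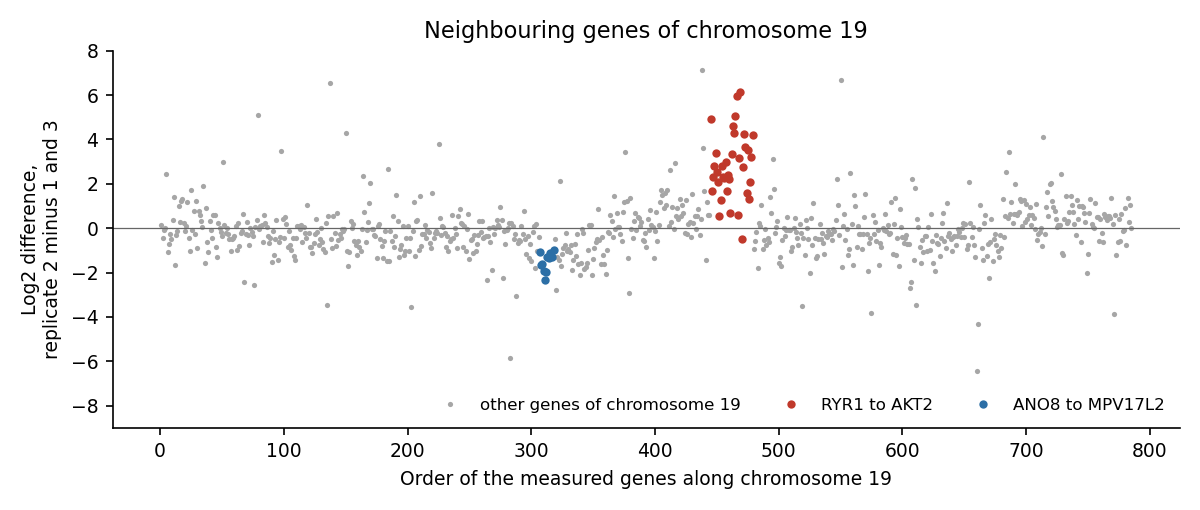
Difference of each measured gene of chromosome 19 (replicate 2 minus replicates 1 and 3, log2), in the order of the genes along the chromosome. The 35 genes from RYR1 to AKT2 (red) have a median of 2.75, and the 12 genes from ANO8 to MPV17L2 (blue) lie below 0.

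The line names were not used to form the 2 sets, so MiaPaCa2 against Panc1 could be tested. With all 3 arrays of each line, limma called 0 of 10705 genes at an adjusted p under 0.05 (0%), and 470 genes had an unadjusted p under 0.05. Without replicate 2 this test called 3039. With replicate 2 in, the spread within a line holds the gap between the sets, by which the arrays were chosen. The count of 0 there cannot show that the lines are alike. With the replicate number as a block, the count was also 0 (0%), with 2664 genes at an unadjusted p under 0.05 and a smallest adjusted p of 0.0928. Within each set the names did differ. A limma fit over the 18 arrays, with a mean for each line in replicate 2 and in replicates 1 and 3, gave 3413 genes (31.9%) between MiaPaCa2 and Panc1 in replicates 1 and 3. Of these, 1651 (15.4%) were higher in MiaPaCa2 and 1762 (16.5%) lower, and 322 were apart by at least 1. Without replicate 1 of MiaPaCa2 the count was 2130. In replicate 2 each line has 1 array, and no spread of replicate 2 was measured. The fit takes its error from the gaps between replicates 1 and 3 of the 6 lines, and calls that involve replicate 2, here and below, hold only if its arrays vary like those. Under that assumption 258 genes (2.41%) were called, 59 (0.551%) higher in MiaPaCa2 and 199 (1.86%) lower. Nothing in the labels shows how separate the cultures of a line were, so these p-values measure only the spread between arrays.

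TXNIP (an inhibitor of thioredoxin and of glucose uptake) had the largest difference among the 5 genes of smallest adjusted p in replicates 1 and 3. It was at 9.43 and 9.74 in MiaPaCa2 and at 12.20 and 12.26 in Panc1, a difference of -2.64 (limma, adjusted p = 1.3e-06), and at 7.77 and 9.26 in replicate 2 of the same lines. SERPINA3, a protease inhibitor, and PTGES, the prostaglandin E synthase, were lower in MiaPaCa2, with differences of -2.16 and -2.49, as was LGALS3BP, a secreted glycoprotein (-2.48). CCN1 (an integrin ligand and a target of YAP) was at 10.70 and 10.65 in MiaPaCa2 and at 8.52 and 8.57 in Panc1, a difference of 2.13. Of the genes off in replicate 2, which by rule are detected on all 4 of these arrays, 127 of 289 (43.9%) were called between the line names in replicates 1 and 3. The share was 43.7% over all genes lower in replicate 2. It was 31.9% over all genes, which take in genes not detected on these arrays. Of the genes on in replicate 2, which by rule are not detected there, 7.91% were called.

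In replicates 1 and 3, cell cycle and replication genes were higher in MiaPaCa2 than in Panc1: 26 of 30 measured members were called in this direction and 0 in the other, against 15.4% of all genes. The median difference was 0.91 over the list and 0.01 over all genes. CDC20, an activator of the anaphase-promoting complex, was at 13.42 and 13.53 in MiaPaCa2 and at 12.15 and 12.14 in Panc1 (difference 1.33, limma adjusted p = 1.32e-05). The mitotic cyclin CCNB2 was higher by 1.27 and the licensing factor CDT1 by 1.03. In replicate 2 the median was 0.03, and 0 of the 30 were called, near the 2.41% called over all genes there. On the assumption above, the difference between the 2 line contrasts was itself called for 18 of the 30, all with the smaller value in replicate 2, against 7.7% of all genes. CDT1 had the largest such value of these 18, -1.33 (limma adjusted p = 0.00217). Without replicate 3 of MiaPaCa2 the count of 18 was 10, and with the 6 arrays alone in the fit it was 10.

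Interferon and antigen presentation genes ran the other way in replicates 1 and 3, with 15 of 27 lower in MiaPaCa2 and 0 higher, against 16.5% of all genes. IFITM3, an antiviral membrane protein, was at 10.85 and 10.70 in MiaPaCa2 and at 12.42 and 12.32 in Panc1 (difference -1.60, limma adjusted p = 1.32e-05). In replicate 2 it was at 13.35 and 13.18, and its line difference there differed from that in replicates 1 and 3 by 1.76 (limma adjusted p = 0.000889). B2M, the light chain of MHC class I, was lower in MiaPaCa2 (difference -0.59). In replicate 2, 0 of the 27 were called, near the 2.41% of all genes. Without replicate 1 of MiaPaCa2 the count of 15 was 10. Integrins and laminins were lower in MiaPaCa2 for 9 of 17 measured members and higher for 0 in replicates 1 and 3. Mesenchymal cytoskeleton and matrix genes were lower for 11 of 32 and higher for 3, with a difference of -1.58 for the collagen chain COL5A1 and of 1.69 for TAGLN, an actin-binding protein.

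**Figure D5:**
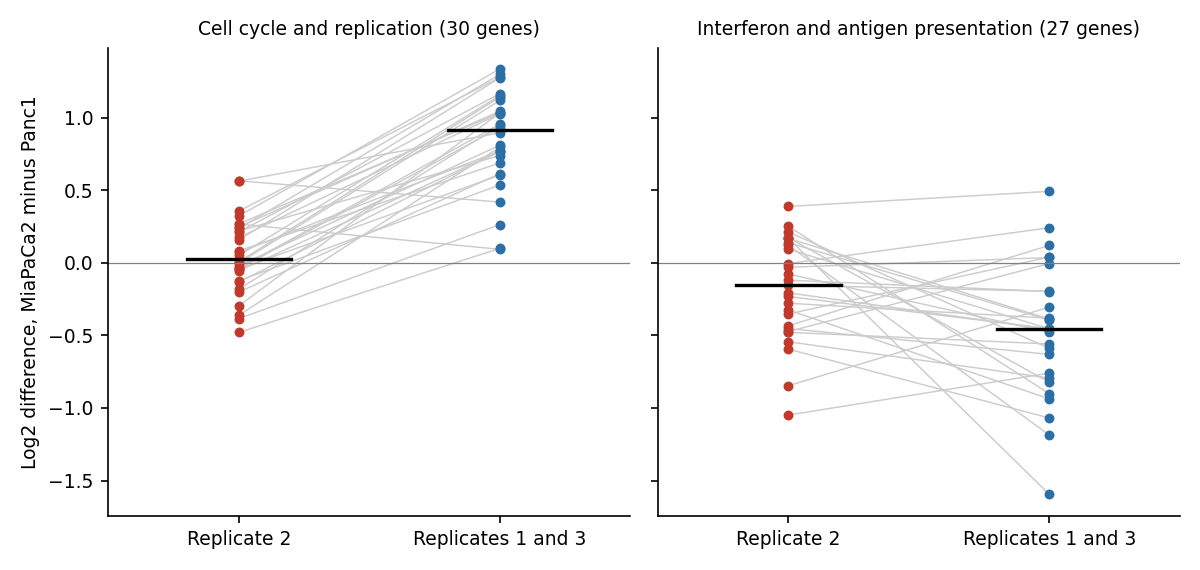
MiaPaCa2 minus Panc1 (log2) for each measured member of 2 gene lists, in replicate 2 (red) and in replicates 1 and 3 (blue), joined by gene, with a bar at each median. The 30 cell cycle genes have medians of 0.03 and 0.91, and the 27 interferon and antigen presentation genes have medians of -0.15 and -0.45.

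Over all genes, and with the spread of replicate 2 assumed and not measured, the line difference in replicate 2 minus that in replicates 1 and 3 was called by limma for 824 genes (7.7%), 390 with a positive and 434 with a negative value. The count was 442 without replicate 1 or without replicate 3 of MiaPaCa2, 527 without replicate 1 of Panc1, and 228 with the 6 arrays alone in the fit. SLC7A5 (the large neutral amino acid transporter LAT1) was at 12.96 in MiaPaCa2 and 13.22 in Panc1 in replicate 2, and at 12.34 and 12.44 in MiaPaCa2 and 10.37 and 10.48 in Panc1 in replicates 1 and 3, a difference of differences of -2.23. RASD1, a RAS-related protein induced by glucocorticoids, was at 6.91 in MiaPaCa2 and 10.93 in Panc1 in replicate 2, and was not detected on the 4 other arrays; its difference of differences was -4.03. KRT7 and KRT80 were lower in MiaPaCa2 in replicate 2, with differences of -1.15 and -0.99, and their values of -1.23 and -1.62 for the difference of differences were called. Of the 258 genes called in replicate 2, 138 were also called in replicates 1 and 3, which is 53.5% of the 258 and 4.04% of the 3413. The sign was the same for 120 and opposite for 18. Over all genes 31.9% were called in replicates 1 and 3. Both contrasts use the same estimate of each gene's spread, so the overlap is only a description. PTGES was lower in MiaPaCa2 in both contrasts, with differences of -1.60 in replicate 2 and -2.49 in replicates 1 and 3. PHGDH, the first enzyme of serine synthesis, had a difference of -1.09 in replicate 2 and of 1.22 in replicates 1 and 3.

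The same rules were applied to the other slides, which were not used to choose the split. The 10705 genes and their probes were, however, chosen by detection on the MiaPaCa2 and Panc1 arrays. Genes detected only on the other slides are therefore left out, while genes on or off in MiaPaCa2 and Panc1 always pass. This filter can raise the shares of the genes on or off there, so the overlaps below are only a description. On the slide of Panc0403 and Panc0504, 154 of the 10705 genes (1.44%) were on and 164 (1.53%) off in replicate 2, with 780 (7.29%) higher and 912 (8.52%) lower. On the slide of Panc1005 and SU8686, 230 genes (2.15%) were on and 134 (1.25%) off, with 1194 (11.2%) higher and 1250 (11.7%) lower. Of the 569 genes on in MiaPaCa2 and Panc1, 45 (7.91%) were on with Panc0403 and Panc0504, which is 29.2% of the genes on there, and 32 were off there. With Panc1005 and SU8686 87 (15.3%) were on, 37.8% of those on there, and 17 were off. Of the 289 genes off, 15 (5.19%) were off on the first of these slides, 9.15% of those off there, and 22 (7.61%) on the second, 16.4% of those off there. On all 3 slides 12 genes were on in replicate 2: DKK3, LDHB, EVL, CDH2, DYRK1B, HOXB4, RNF144B, AFAP1L1, FCGBP, EPHB6, BEX2 and AUTS2. TESC, a calcium-binding regulator of sodium-proton exchange, was off on all 3.

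CDH2 was at 10.67 and 10.86 in replicate 2 of Panc0403 and Panc0504 and at 11.23 and 8.03 in that of Panc1005 and SU8686, against 4.71 to 4.85 in their replicates 1 and 3. CDH1 was detected on all 12 of these arrays, at 11.73 to 13.68, so that the 4 replicate 1 and 3 arrays of MiaPaCa2 and Panc1 were the only ones of the 18 without it. Their replicate 2, at 9.24 and 8.94, lay between. EPCAM showed the same order, at 13.46 to 14.25 on the 12 other arrays. SNAP25 was not detected on any array of Panc0403 or Panc0504, and was lower in replicate 2 of Panc1005 (4.85, against 6.60 and 6.77) and of SU8686 (6.0, against 8.52 and 8.48). FOXA2 was also higher in replicate 2 of Panc1005 (11.65, against 5.32 and 5.25) and of SU8686 (8.43, against 5.42 and 5.49). So was TGFBR2, at 11.59 and 12.31, against 8.01 to 8.54. COL1A2 was lower there, at 5.66 and 5.38, against 8.97 to 10.33, as was ALDH1A1, at 5.30 and 7.93, against 11.60 to 12.71. SLC2A3 was higher in replicate 2 of Panc1005 and lower in that of SU8686. In Panc0403 and Panc0504 FOXA2 overlapped between the sets, COL1A2 was not detected, and ALDH1A1 was higher in replicate 2. TGFBR2 was higher in replicate 2 there too, at 12.94 and 13.08, against 11.36 to 11.67. SLC2A3 was lower there, at 10.49 and 10.57, against 12.54 to 13.65. VIM, at 14.95 to 15.18 on all 6 MiaPaCa2 and Panc1 arrays, was at 5.10 to 12.86 on the other 12. These lines share no arrays with the 6, and the values stand side by side without a test.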

How the data were processed

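The 18 arrays hold 6 human pancreatic cancer lines, 3 arrays each; per the labels' protocols, Trizol-extracted RNA went through an RNeasy clean-up with DNase and was labelled as biotinylated cRNA. The deposited intensity table holds linear bead intensities of 48107 probes on 18 arrays, and a detection p-value is deposited beside each intensity. No label or header names the scanner software. The authors' deposited log2 values cover 47323 probes, with 13 missing values. Apart from Panc1 replicate 3, shared value distributions show that they were quantile normalized in separate sets of arrays, so they served only as an alternative. The median of Panc1 replicate 3 was 6.898 in these values, against 6.873 to 6.874 on the other arrays of its slide.

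Intensities were corrected and quantile normalized over the 18 arrays with neqc (limma 3.58.1, R 4.3.3, offset 16), which understates differences of dim genes. Of the probes in the platform annotation, 30113 had 1 symbol, 8 several and 17202 none; 30074 were matched to current symbols by Entrez ID, and 784 probes of the intensity table, outside that annotation, stayed unnamed. A gene was read from its probe of highest mean over the 6 arrays among those detected (p-value under 0.01) on at least 2 of them; 2735 of 10705 genes had several such probes. Of 171 named genes, 46 had several probes, and in 9 of these 1 probe differed by at least 1 and another did not (KRT18, GAS1, NRG1, MAPT, DST, IFIT3, HK2, CD68 and EGFL7); only the probes of HK2 differed in sign. Probes of 1 gene could also differ in size past 1: from 1.09 to 5.32 for TPM1 and from 1.50 to 8.16 for DKK3. The range was -6.78 to -1.03 for CALB2, 2.82 to 7.69 for UBASH3B and 1.09 to 4.02 for PDGFB. It was 5.52 to 9.45 for CD24, 2.90 to 5.43 for AGR2 and 1.19 to 3.66 for LAMB1. For SNAP25 it was -5.54 to -3.70 and for SNAI2 -2.68 to -1.09. The number of arrays limits the precision.

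Replicate 2 against replicates 1 and 3 is described without a test. MiaPaCa2 against Panc1 was tested with limma and Benjamini-Hochberg adjustment over all 10705 genes, first with 3 arrays a line, then in a fit of all 18 arrays with a mean for each line in replicate 2 and in replicates 1 and 3. All residual spread of that fit is the gap between replicates 1 and 3 of each line, and single replicate 2 arrays are assumed to vary like them. Deviations of same-numbered arrays from their line's mean correlated at 0.889, 0.943 and 0.897 for replicates 1, 2 and 3, which restates the split of replicate 2 from the others; replicate 1 minus replicate 3 correlated at 0.06 between the lines, so pairing of replicates 1 and 3 is not shown. Tests were tried on simulated data. The genes named are the 4 markers, CDKN2A, MTAP and SMAD4, the 12 of largest difference on and off, up to 4 measured members of largest difference in each direction of a list, and the 5 of smallest adjusted p in each test; other genes were added after their values were seen. The members and all gene lists were chosen with earlier results of these data known. Sequences and gene order are from RefSeq (GRCh38.p14); the files name no build.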

Additional observations from a re-analysis of the deposited data

Results flagged for a closer look

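BNIP3 had 1 array apart from the rest among replicates 1 and 3: Panc1 replicate 3 was at 6.57 and the others at 6.31 to 6.34, so that this gap made up 0.862 of the range of the 4 arrays. The gene was at 12.35 and 12.24 in replicate 2, far above all 4. Chance alone marks some groups of this size in this way.

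The MiaPaCa2 minus Panc1 difference itself differed between replicate 2 and replicates 1 and 3 for 824 genes by limma, in a fit that assumes and does not measure the spread of replicate 2. The 5 of smallest adjusted p were SLC7A5 (-2.23), RASD1 (-4.03), H2BC5 (2.71), PHGDH (-2.31) and CCN1 (-2.13), each given as the line difference in replicate 2 minus that in replicates 1 and 3. CCN1 was at 12.98 in both lines in replicate 2, whereas in replicates 1 and 3 it was at 10.70 and 10.65 in MiaPaCa2 and at 8.52 and 8.57 in Panc1. H2BC5, a histone gene, had line differences of 0.39 in replicate 2 and -2.32 in replicates 1 and 3; histone genes of this family are near-identical and can share signal.

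EPCAM and SNAP25 ran opposite ways on the slide of Panc0403 and Panc0504 and in MiaPaCa2 and Panc1. There, replicate 2 minus replicates 1 and 3 was -0.60 for EPCAM and 0.45 for SNAP25, and SNAP25 was not detected on any of those 6 arrays. The difference between the slides was not tested.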

How the results depend on the processing

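Without background correction and in the authors' deposited log2 values, 175 and 184 genes were off in replicate 2, 1155 and 1206 higher and 785 and 794 lower. With an offset of 50, 1351 were higher and 995 lower. The median of the epithelial adhesion list was 1.48 with an offset of 50, 1.21 without background correction and 1.31 in the authors' values. Leaving out single arrays gave 557 to 593 genes on, 292 to 352 off, 1567 to 1637 higher and 1264 to 1313 lower, and medians of 1.73 to 1.83 for epithelial adhesion, 0.14 to 0.48 for mesenchymal cytoskeleton and matrix and -0.21 to -0.05 for neural genes. No list's median changed sign under another scaling. Over 184 named genes and 2385 values, 2040 stayed within the spread between arrays and 345 moved further. A change of sign was counted only for the 143 of these genes called higher or lower (1852 values), and 0 reversed. Those genes differ by at least 1 without overlap, so a reversal was unlikely by the rule that chose them. Between MiaPaCa2 and Panc1, the fit with the replicate block called 0 genes. The fit without it also called 0, with the gap between the sets inside its spread within a line. Leaving out 1 replicate number of both lines gave 0 to 3039, the highest without replicate 2. Within replicates 1 and 3, leaving out single arrays gave 2130 to 2494 genes, and for the difference of the line contrasts 442 to 562, which was 228 with the 6 arrays alone in the fit. For alternatives chosen after seeing the data, 25 to 28 cell cycle genes were higher in MiaPaCa2 in replicates 1 and 3, 10 to 25 had the smaller line difference in replicate 2, and 10 to 15 interferon genes were lower. Fits with fewer arrays estimate the spread less well by construction; otherwise the cause was not tested. The tests over 18 arrays were not run with the 6 arrays normalized alone. Signal over background limits the folds of genes on and off to bounds.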

Other observations

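Shorter runs of neighbouring genes held several receptors and adhesion genes. On chromosome 5, EGFLAM, LIFR, OSMR, DAB2 and PTGER4 were consecutive among measured genes and all higher in replicate 2, by 1.48 to 4.76, with 4 of the 5 on; LIFR and OSMR are receptor subunits for cytokines of the IL-6 family. On chromosome 3, NXPE3, NFKBIZ, ALCAM, CBLB and BBX were all higher, by 2.09 to 2.95. The run from ACVR1B to KRT18 on chromosome 12 held 4 of the 5 keratins that were higher. On the lower side, the 7 genes from XPO7 to POLR3D on chromosome 8 had a median of -1.83, and CALB2 lay in a run of 5 from CMTR2 to PHLPP2 on chromosome 16.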
